A study of Homo sapiens with 91 samples.

Results

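The comparison described here set 4 libraries of PSN1 cells treated for 4 h with KB-0742 against 4 libraries of PSN1 cells given the vehicle DMSO for 4 h, 8 of the 91 libraries in the series. PSN1 is an established human line labelled as pancreatic adenocarcinoma, and KB-0742 is a small-molecule inhibitor of the kinase CDK9. The libraries were chosen by line, compound and time as the labels give them. The other PSN1 libraries were treated with KI-CDK9d-32, a compound made to degrade CDK9, or collected at other times, and further libraries came from MOLT4 and RH4 cells. Each well was seeded with 1000 cells, both groups were grown in the same serum-containing medium, and doses are not given in the sources used here. Synthetic ERCC and SIRV transcripts were spiked into every thawed lysate in equal amount, and 1 ng of total RNA went into each library. The labels call the samples biological replicates without saying whether they were separate cultures, and a p-value here reflects only the spread among these samples, which may be technical.

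CDK9 with cyclin T1 or T2 forms the kinase P-TEFb, which phosphorylates the RNA polymerase II tail and pausing factors and lets paused polymerase enter productive elongation. Most P-TEFb is held inactive on the 7SK RNA by HEXIM proteins, and active P-TEFb works in part within the super elongation complex. Short-lived mRNAs such as those of MYC and MCL1 are widely used as readouts of CDK9 inhibition.

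The 8 libraries held between 2118876 and 3041088 counts in genes. A gene with at least 1 count was found for 15221 to 16441 genes in the KB-0742 libraries and 17384 to 18794 in the DMSO libraries, so the groups did not overlap. The 100 highest genes took 54.4 ± 1.14% of gene counts in KB-0742 libraries and 46.6 ± 1.30% in DMSO libraries (SD, n = 4 each; two-sided exact permutation test, p = 0.0286, the smallest that 4 against 4 allows). Mitochondrial genes took 26.5 ± 1.58% of gene counts with KB-0742 and 20.8 ± 1.96% with DMSO (SD, n = 4 each; exact permutation test, p = 0.0286). Spike-in RNA made up 16.2, 12.7, 14.5 and 19.6% of counts in the KB-0742 libraries, against 9.87, 10.1, 12.8 and 17.6% in the DMSO libraries. The groups overlapped, and the difference of 3.17 percentage points did not pass an unpaired test (exact permutation test, p = 0.257). By replicate number, each KB-0742 library had the higher share, by 6.3, 2.67, 1.65 and 2.06 points, though the numbers were not taken as pairs. The line's label was checked on its markers, and not all epithelial markers were present. Epithelial and pancreatic carcinoma markers summed to 9580 to 12900 CPM (library-size-scaled counts) with KB-0742 and 6770 to 9880 CPM with DMSO, with 3 of 35 markers at 0 in all 8 libraries. KRT8 and KRT18, keratins of simple epithelia, averaged 2030 and 2750 CPM with KB-0742 and 1470 and 1890 CPM with DMSO. E-cadherin, CDH1, had 3 counts over the 8 libraries, and the epithelial regulators GRHL2 and ESRP1 had 0. Mesenchymal markers summed to 1390 to 1670 CPM with KB-0742 and 1070 to 1250 CPM with DMSO, with 2 of 19 at 0, and the intermediate filament gene VIM made up 1100 CPM with KB-0742 and 786 CPM with DMSO on average. T-lineage markers summed to 2.13 to 8.55 CPM with KB-0742 and 3.34 to 6.97 CPM with DMSO with 16 of 20 at 0, and myogenic markers to 0 to 7.47 CPM with KB-0742 and 2.52 to 6.1 CPM with DMSO with 7 of 17 at 0. Acinar and endocrine markers summed to 20.3 to 34.2 CPM with KB-0742 and 10.9 to 31.4 CPM with DMSO, with 12 of 14 at 0.

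After 4 h of KB-0742, 2983 of 12471 tested genes differed from DMSO, which is 23.9% (edgeR quasi-likelihood test, Benjamini-Hochberg adjusted p under 0.05 over all genes tested). Of these, 1412 were higher (11.3%) and 1571 were lower (12.6%), relative to the other genes. The lower genes moved further: 1142 were lower by at least 2-fold, against 368 higher, and 411 were lower by at least 4-fold, against 90 higher. The median log2 change was -1.42 among the genes called lower and 0.62 among those called higher. The split between directions depended on the scaling. When libraries were scaled to the spike-in RNA, the median gene shifted by -0.84 on the log2 scale, and 74 genes (0.593%) were higher and 5269 (42.3%) were lower. The 74 were all among the 1412, and the 1571 were all among the 5269. The authors' log2(TPM + 1) values, tested with limma, gave 213 higher and 4133 lower. With bulk RNA, fewer cells and less RNA per cell cannot be told apart, so the spike-in values describe the RNA of a gene per well. The shift of -0.84 is that of the median gene and not of total RNA. TMM factors also differed, at 0.834 to 0.888 with KB-0742 and 1.13 to 1.18 with DMSO, while the spike-in shares of the groups overlapped. Below, a change is relative to the other genes unless spike-in scaling is named. Of 35 genes named below from this comparison as higher, 12 were also higher past the threshold with spike-in scaling: CCNT1, CCNL1, EPHA2, TAOK1, ZNF792, HELLPAR, LIFR, UGCG, DCAF4L1, RPL30-AS1, MPRIP-AS1 and RPL21P28. CPM values of the 2 groups did not overlap for 3090 genes, which is 24.8%. A call was kept in all 8 fits that left out 1 library for 1732 genes, 829 higher and 903 lower.

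**Figure D1:**
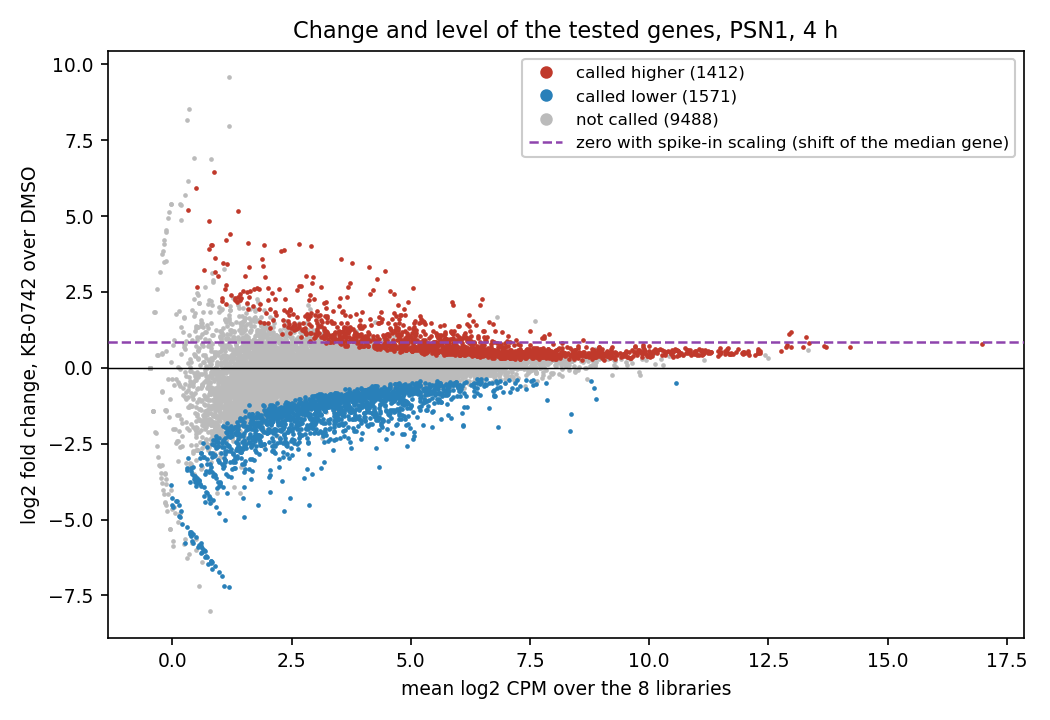
Log2 change of each tested gene, KB-0742 over DMSO (y axis), against its mean log2 CPM over the 8 libraries (x axis), with called genes coloured. The dashed line marks where no change would lie with spike-in scaling, by the shift of the median gene, and most genes called higher at high levels lie below it.

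The direction of change varied with the level of a gene. In the highest of 5 equal bins of genes by mean log2 CPM, 36% were called higher and 5.97% lower, while in the lowest bin 2.04% were called higher and 14% lower. The median log2 change was 0.27 in the highest bin and -0.66 in the lowest. Long intergenic noncoding RNAs had a median of -0.63, with 20.2% of 321 called lower and 4.98% called higher. Antisense RNAs had a median of -0.37, with 19% of 457 called lower and 8.1% called higher. Protein-coding genes had a median of -0.06, with 12% of 10619 called lower and 11.7% called higher. From the lowest to the highest level bin, the medians of the noncoding classes together were -0.82, -0.36, -0.21, -0.13 and 0.019. Those of protein-coding genes were -0.66, -0.38, -0.18, 0.008 and 0.27. The shares called lower in these bins were 18.9, 14.7, 24.3, 31.9 and 20%, against 12.9, 15.6, 13.9, 12.9 and 5.78% of protein-coding genes. By genomic length, the median was 0.03 in the shortest of 5 bins and -0.10 in the longest. These are descriptions across genes, which are not replicates, and levels, classes and lengths move together.

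Both cyclin partners of CDK9 rose, and the inhibitor gene HEXIM1 and the 7SK-capping enzyme gene MEPCE fell. CCNT1, the main cyclin partner of CDK9, had 47.1, 48.5, 52.9 and 49.6 CPM in the KB-0742 libraries, against 11.7, 19.5, 16.7 and 11.5 CPM in the DMSO libraries. All 4 treated libraries stood above all 4 vehicle libraries. The log2 change was 1.74 ± 0.245 (SE; edgeR adjusted p = 1.31e-06), and it was 0.88 with spike-in scaling (adjusted p = 0.0445). CCNT2, the alternative cyclin, had 28.3, 19.7, 20.1 and 23.1 CPM with KB-0742, against 8.01, 7.32, 7.58 and 4.76 CPM with DMSO. The groups did not overlap, and the log2 change was 1.72 ± 0.29 (SE; edgeR adjusted p = 2.53e-05). With spike-in scaling it was 0.83, which did not pass (adjusted p = 0.0857). CDK9 itself had 21.3, 9.60, 10.5 and 14.5 CPM with KB-0742, against 4.34, 7.93, 5.76 and 9.53 CPM with DMSO. The groups were separate but close, and the log2 change of 1.01 ± 0.39 (SE) missed the threshold (edgeR adjusted p = 0.051). It passed in 3 of the 8 fits that left out 1 library, and with the 8 libraries fitted alone (adjusted p = 0.0459).

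HEXIM1, which with 7SK RNA inhibits P-TEFb, had 3.97, 5.87, 6.72 and 2.14 CPM in the KB-0742 libraries, against 9.01, 11.9, 18.2 and 16.3 CPM in the DMSO libraries. All treated libraries were lower than all vehicle libraries. HEXIM1 fell by 1.57 ± 0.37 on the log2 scale (SE; edgeR adjusted p = 0.00184). Its paralog HEXIM2 was near the limit of counting, at a mean of 0.767 CPM with KB-0742 and 3.58 CPM with DMSO, and its log2 change of -2.11 ± 0.87 (SE) did not pass (edgeR adjusted p = 0.0713). MEPCE, the enzyme that caps 7SK, had 2.97, 6.40, 2.94 and 4.70 CPM with KB-0742, against 11.7, 12.2, 13.3 and 15.1 CPM with DMSO. It was lower in every treated library than in any vehicle library, with a log2 change of -1.625 ± 0.36 (SE; edgeR adjusted p = 0.000721). LARP7, which protects the end of 7SK, had a log2 change of -0.23 (edgeR adjusted p = 0.711). The 7SK RNA had 69.4, 49.1, 123 and 75.3 CPM with KB-0742, against 33.7, 28.7, 24.3 and 64.7 CPM with DMSO, and the groups overlapped. Its log2 change of 1.07 ± 0.35 (SE) passed (edgeR adjusted p = 0.0277), but not without KB-0742 replicate 3 (adjusted p = 0.143), nor without DMSO replicate 1, 2 or 3. It did not pass with the 8 libraries fitted alone (adjusted p = 0.0742), with no filter on low counts (0.0824), with limma (0.115) or with spike-in scaling (0.31, adjusted p = 0.435). 7SK has many pseudogene copies, so its counts are uncertain.

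In the super elongation complex the scaffolds moved apart. AFF4 had 178, 168, 188 and 158 CPM with KB-0742, against 68.8, 67.7, 62.8 and 55.8 CPM with DMSO. The groups lay far apart, and AFF4 rose by a log2 change of 1.44 ± 0.14 (SE; edgeR adjusted p = 8.27e-10), but not past the threshold with spike-in scaling (0.58, adjusted p = 0.116). AFF1, the related scaffold, had 1.98, 8.53, 3.78 and 5.56 CPM with KB-0742, against 15.3, 13.1, 10.6 and 17.9 CPM with DMSO. Each treated library was lower than each vehicle library, and AFF1 fell with a log2 change of -1.53 ± 0.36 (SE; edgeR adjusted p = 0.00183). The elongation factor ELL rose by 1.06 ± 0.31 (SE; edgeR adjusted p = 0.011), and did not pass with spike-in scaling (0.16, adjusted p = 0.745) or without the libraries of replicate number 4 (adjusted p = 0.0939). The YEATS-domain subunits MLLT1 and MLLT3 had changes of 0.31 and -0.79, and neither passed (edgeR adjusted p = 0.512 and 0.166). In all, 16 of 18 listed genes were tested, and 8 of these genes of P-TEFb, 7SK and the super elongation complex were higher and 3 were lower, with a median log2 change of 0.69 (-0.11 with spike-in scaling). Over all genes tested 11.3% were higher and the median was -0.08. The count of higher genes was 5 without DMSO replicate 1, 2 or 3.

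**Figure D2:**
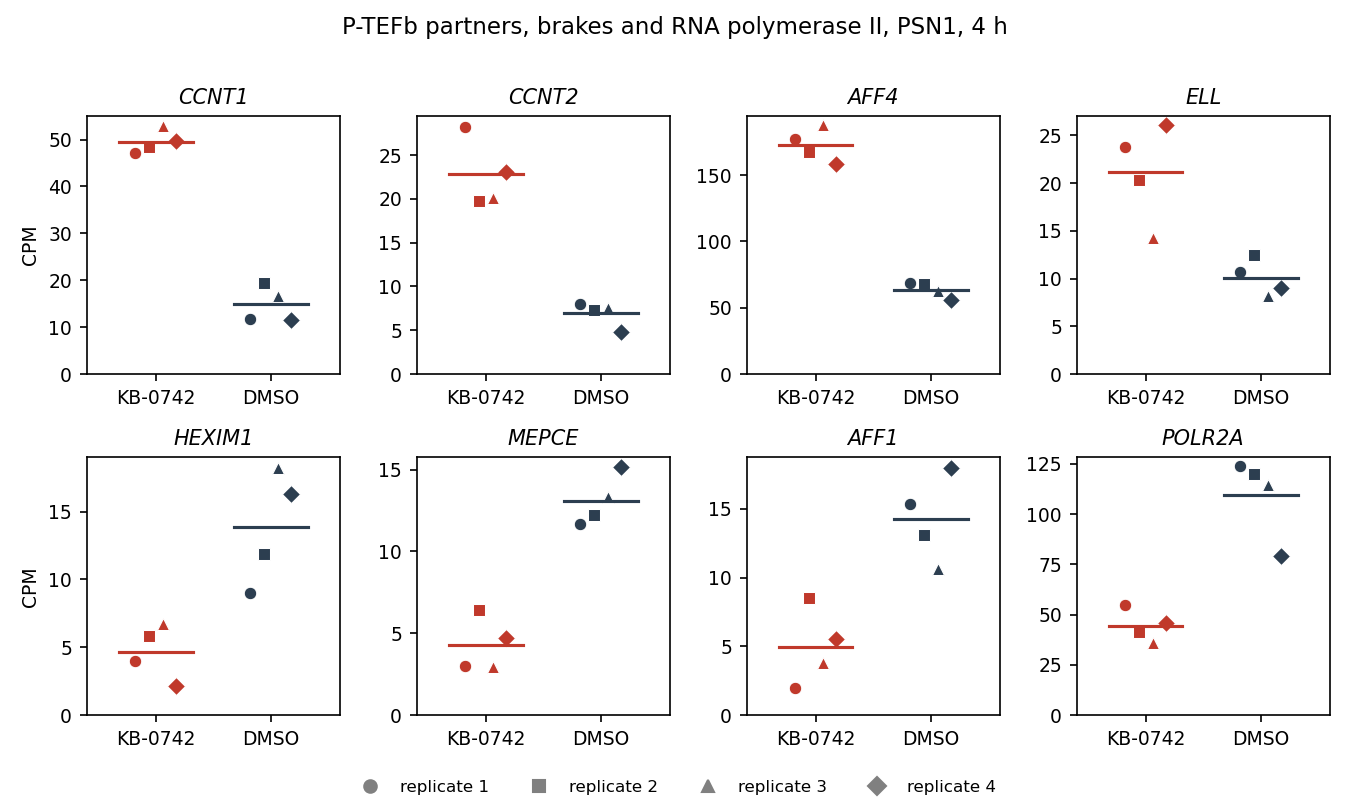
CPM in each library (y axes start at 0) of P-TEFb partners, 7SK regulators and POLR2A, KB-0742 left of DMSO, with a marker per replicate number and a line at the group mean. CCNT1, CCNT2, AFF4 and ELL are higher in all 4 treated libraries than in any vehicle library, and HEXIM1, MEPCE, AFF1 and POLR2A are lower in all 4.

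The 250 bases before the RefSeq start of 4 of these genes are printed to show the promoters of the cyclin genes that rose and of HEXIM1 and POLR2A, which fell. The sequences are from the RefSeq table on GRCh38.p14, read 5′ to 3′ on the gene's strand, and capitals mark the motifs found. The windows are CCNT1 at chr12:48716708-48716957 on the minus strand, CCNT2 at chr2:134918572-134918821 on the plus strand, HEXIM1 at chr17:45148225-45148474 on the plus strand, and POLR2A at chr17:7484116-7484365 on the plus strand. The GENCODE genes CCNT1 and CCNT2 begin further upstream than RefSeq has them, at 48716998 and 134918235, so these windows lie inside the GENCODE genes. CCNT1 has 2 windows in the table, and the one nearest the GENCODE start is shown.
CCNT1: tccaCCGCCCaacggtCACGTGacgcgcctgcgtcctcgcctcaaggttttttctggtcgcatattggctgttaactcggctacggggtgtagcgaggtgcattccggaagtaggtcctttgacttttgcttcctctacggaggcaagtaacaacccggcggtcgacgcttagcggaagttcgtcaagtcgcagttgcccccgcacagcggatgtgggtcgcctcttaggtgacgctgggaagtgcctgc
CCNT2: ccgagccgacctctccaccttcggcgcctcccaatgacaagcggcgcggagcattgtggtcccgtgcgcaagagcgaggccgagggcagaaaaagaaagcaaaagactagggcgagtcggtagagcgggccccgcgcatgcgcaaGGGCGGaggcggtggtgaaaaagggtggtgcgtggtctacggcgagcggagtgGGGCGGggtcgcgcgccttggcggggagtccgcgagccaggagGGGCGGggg
HEXIM1: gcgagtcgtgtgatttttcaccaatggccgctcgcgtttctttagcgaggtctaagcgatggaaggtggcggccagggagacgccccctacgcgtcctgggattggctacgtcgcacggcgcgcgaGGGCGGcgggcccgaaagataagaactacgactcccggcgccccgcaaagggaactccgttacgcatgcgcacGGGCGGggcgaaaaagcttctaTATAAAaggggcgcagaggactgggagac
POLR2A: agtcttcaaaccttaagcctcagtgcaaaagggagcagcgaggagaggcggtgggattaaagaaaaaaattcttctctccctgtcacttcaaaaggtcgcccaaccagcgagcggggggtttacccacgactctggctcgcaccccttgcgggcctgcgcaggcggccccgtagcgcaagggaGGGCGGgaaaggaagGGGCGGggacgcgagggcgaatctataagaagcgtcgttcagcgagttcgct
On both strands, 4 motifs were searched. A GC box, the usual site of SP1-family factors, was searched as GGGCGG. The TATA motif that marks some core promoters was searched as TATAAA. The E-box bound by MYC with MAX was searched as CACGTG. The site of AP-1 factors was searched as TGACTCA. No match overlapped another. CCNT1 held 1 GGGCGG on the opposite strand, read as CCGCCC, and 1 E-box. The promoter of CCNT2 held 3 copies of GGGCGG, POLR2A held 2, and HEXIM1 held 2 with 1 TATAAA. Of all 35116 promoters in the table, 42.6% held the GC box, 10.7% held the TATA motif, 6.34% held the E-box and 4.2% held the AP-1 motif. Of the 9155 tested genes with a promoter in the table, 74.7% held the GC box, 7.9% the TATA motif, 11.5% the E-box and 4.03% the AP-1 motif. A match is a description of the letters in this window. The table matched 73.4% of tested genes, so a comparison of motif shares between called genes is void.

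POLR2A, the largest subunit of RNA polymerase II, had 55.0, 41.6, 35.7 and 45.8 CPM in KB-0742 libraries, against 124, 120, 115 and 79.3 CPM in DMSO libraries. Every treated library was lower than every vehicle library. POLR2A fell by 1.30 ± 0.20 on the log2 scale (SE; edgeR adjusted p = 6.13e-06). Relative to the other genes, POLR2A was the only subunit called lower. Of 12 tested polymerase II subunits, 7 were higher (58.3%, against 11.3% of all genes), with a median of 0.43. With spike-in scaling the median was -0.40, and 0 subunits were higher and 4 lower. POLR2B, the second-largest subunit, had a mean of 67.7 ± 10.9 CPM with KB-0742 and 30.7 ± 4.02 CPM with DMSO (SD, n = 4 each), a log2 change of 1.14 ± 0.20 (SE; edgeR adjusted p = 4.14e-05; 0.29 with spike-in scaling). Without KB-0742 replicate 3 the count of higher subunits was 4.

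MYC did not pass the test relative to the other genes. It had 244, 254, 236 and 222 CPM with KB-0742, against 288, 274, 236 and 268 CPM with DMSO. The groups overlapped, and the log2 change was -0.16 ± 0.13 (SE; edgeR adjusted p = 0.423). With spike-in scaling it was -1.001 (adjusted p = 0.01), and limma on the authors' log2(TPM + 1) gave -0.74, which also passed. Its dimer partner MAX had a change of -0.23 (edgeR adjusted p = 0.329). None of the 11 tested genes of the MYC-MAX network was called in either direction, and their median was -0.29 (-1.18 with spike-in scaling). MCL1, an anti-apoptotic BCL2 family member, had 52.0, 37.3, 51.2 and 27.8 CPM with KB-0742, against 30.7, 27.4, 28.8 and 31.7 CPM with DMSO. Of the treated libraries 3 were above all vehicle libraries and 1 lay among them, and the change of 0.50 ± 0.20 (SE) did not pass (edgeR adjusted p = 0.0586; -0.31 with spike-in scaling). Without KB-0742 replicate 4 it was 0.66 and passed (adjusted p = 0.0151). Genes of nucleolar and ribosome assembly linked to MYC went both ways relative to the other genes. Of 53 tested, 11 were higher (20.8%, against 11.3% of all genes) and 7 were lower (13.2%, near the 12.6% of all genes). Their median was 0.15. With spike-in scaling it was -0.71, and 0 were higher and 22 lower. DDX21, a nucleolar RNA helicase, rose by 1.12 (edgeR adjusted p = 7.39e-06; 0.28 with spike-in scaling), and WDR43, a small-subunit processing factor, by 1.00 (edgeR adjusted p = 0.00145; 0.10 with spike-in scaling). The higher count was 7 without KB-0742 replicate 2 or DMSO replicate 3 and 6 without DMSO replicate 4. The lower count was 4 without replicate 1 of either group, KB-0742 replicate 4 or DMSO replicate 2.

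Among other transcription regulators the shares called were 25% of pausing and elongation factors, 30.8% of other kinases and cyclins, 34.5% of Mediator subunits and 18.2% of TFIID and TAF genes, against 23.9% of all genes. Of 20 pausing and elongation factors, 4 were higher and 1 was lower, with a median of 0.15 (2 higher without DMSO replicate 4). The elongation factors RTF1, of the PAF1 complex, and SUPT6H, a histone chaperone, rose by 1.055 ± 0.23 and 0.98 ± 0.21 (SE; edgeR adjusted p = 0.000572 and 0.000517), which was 0.25 and 0.18 with spike-in scaling. Of 13 other transcription-linked kinases and cyclins, 3 were higher and 1 was lower. The cyclins of CDK11 were among them: CCNL1 averaged 65.8 ± 10.9 CPM with KB-0742 and 19.9 ± 3.42 CPM with DMSO, and CCNL2 averaged 122 ± 1.82 CPM with KB-0742 and 59.6 ± 20.8 CPM with DMSO (SD, n = 4 each). Their log2 changes were 1.72 (edgeR adjusted p = 6.07e-08) and 1.04 (edgeR adjusted p = 0.000299), or 0.91 and 0.28 with spike-in scaling. CCNH, the cyclin of the TFIIH kinase CDK7, rose by 1.035 ± 0.24 (SE; edgeR adjusted p = 0.00189; 0.24 with spike-in scaling). Of 29 Mediator subunits, 5 were higher and 5 lower, with a median of -0.29, and 3 were higher without replicate 3 or 4 of KB-0742 or 1 or 3 of DMSO and 3 lower without DMSO replicate 2. MED18 fell by 1.545 ± 0.34 (SE; edgeR adjusted p = 0.000869), with a mean of 3.76 CPM with KB-0742 and 11.2 CPM with DMSO. Of 22 TFIID and TAF genes, 1 was higher and 3 were lower, among them TBP, the TATA-binding protein, at -0.76 ± 0.20 (SE; edgeR adjusted p = 0.00387; 0.0553 without the libraries of replicate number 3). TAF1C, a subunit of the polymerase I factor SL1, fell by 0.88 ± 0.22 (SE; edgeR adjusted p = 0.00345).

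Core splicing factors were mainly higher, with some splicing regulators far lower. Of 48 core splicing factors, 27 were higher (56.2%) and 2 were lower (4.17%), against 11.3% and 12.6% of all genes. In the highest bin of all genes by level 36% were called higher, and the part of level in this count was not tested. The median of the core splicing factors was 0.47. With spike-in scaling it was -0.37, and 0 were higher and 9 lower. SF3B1, which recognises the branch point, averaged 139 ± 15.9 CPM with KB-0742 and 59.9 ± 10.6 CPM with DMSO (SD, n = 4 each), a log2 change of 1.22 ± 0.19 (SE; edgeR adjusted p = 9.22e-06; 0.38 with spike-in scaling). PRPF38B rose by 1.22 ± 0.21 (SE; edgeR adjusted p = 5e-05; 0.37 with spike-in scaling). LUC7L3, a U1-associated factor, had 32.2, 35.2, 42.8 and 31.6 CPM with KB-0742, against 120, 126, 132 and 142 CPM with DMSO. The groups were wide apart in the other direction, and LUC7L3 fell by 1.87 ± 0.14 (SE; edgeR adjusted p = 1.18e-12). SRSF5, an SR protein, had 34.2, 34.7, 29.4 and 31.6 CPM with KB-0742, against 70.1, 93.0, 115 and 131 CPM with DMSO. Treated libraries were alike and all below the vehicle libraries, and the log2 change was -1.66 ± 0.17 (SE; edgeR adjusted p = 7.67e-10). Of 11 SR protein genes, 2 were higher and 2 lower, 18.2% each. SRSF6 fell by 0.57 (edgeR adjusted p = 0.00894; 0.0654 without the libraries of replicate number 2), and SRSF3 rose by 0.70 (edgeR adjusted p = 6.84e-07), which was -0.16 with spike-in scaling. Of 8 splicing kinase and TRA2 genes, 1 was higher (12.5%, near the 11.3% of all genes) and 0 were lower.

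In mRNA 3′ end processing and Integrator, 2 of 32 genes were higher and 7 were lower (21.9%, against 12.6% of all genes), with a median of -0.17. CSTF3, a subunit of the cleavage stimulation factor, averaged 5.37 ± 1.61 CPM with KB-0742 and 20.2 ± 3.37 CPM with DMSO (SD, n = 4 each), a log2 change of -1.88 ± 0.28 (SE; edgeR adjusted p = 4.42e-06). INTS5, of the Integrator complex, fell by 1.34 ± 0.39 (SE; edgeR adjusted p = 0.00969), and this call was lost without the libraries of replicate number 1 or 3 (adjusted p = 0.0658 and 0.0741). CPSF4, of the cleavage and polyadenylation factor, fell by 1.21 ± 0.35 (SE; edgeR adjusted p = 0.00839; 0.0858 without the libraries of replicate number 2).

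**Figure D3:**
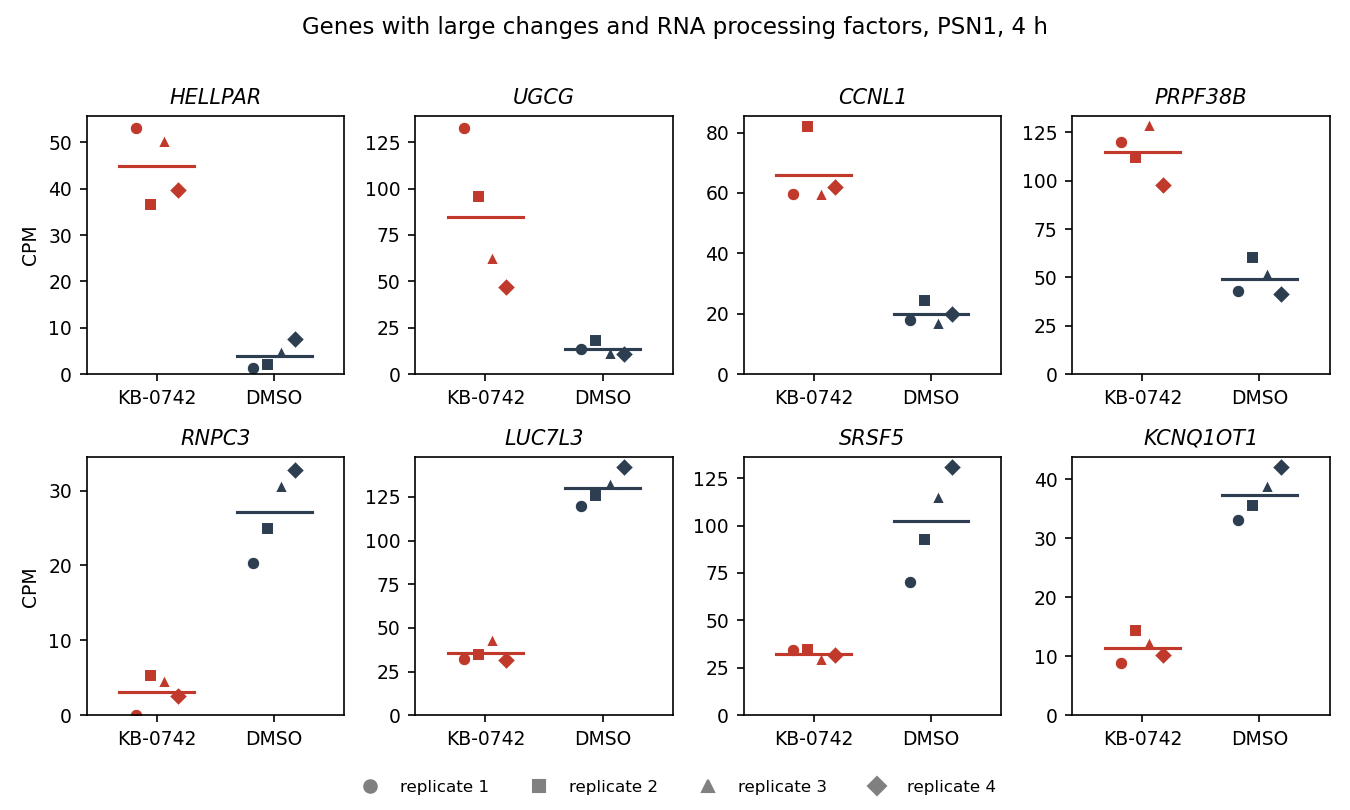
CPM in each library (y axes start at 0) of genes with large changes and of RNA processing factors, KB-0742 left of DMSO, with a marker per replicate number and a line at the group mean. The upper row shows genes higher in all 4 treated libraries, and the lower row shows genes lower in all 4.

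The genes with the largest changes included both coding and noncoding transcripts. ZNF792, a KRAB zinc finger gene at chr19:34956354-34964049, had 29.2, 41.6, 29.8 and 49.6 CPM with KB-0742, against 5.01, 1.83, 2.43 and 3.08 CPM with DMSO. It was higher in every treated library, with a log2 change of 3.60 ± 0.41 (SE; edgeR adjusted p = 1.25e-08). HELLPAR, a very long noncoding RNA at chr12:102197585-102402596, had 53.04, 36.8, 50.4 and 39.8 CPM with KB-0742, against 1.33, 2.13, 4.85 and 7.57 CPM with DMSO. The treated libraries stood well above all vehicle libraries, and the log2 change was 3.46 ± 0.28 (SE; edgeR adjusted p = 9.55e-12). With limma on the authors' log2(TPM + 1) values, HELLPAR did not pass (0.13, adjusted p = 0.0721). The leukemia inhibitory factor receptor LIFR rose by 2.65 ± 0.30 (SE; edgeR adjusted p = 1.22e-08), with libraries of each group close together. UGCG, the enzyme that makes glucosylceramide, had 133, 96.0, 62.6 and 47.0 CPM with KB-0742, against 13.7, 18.3, 11.2 and 10.9 CPM with DMSO. The treated libraries were uneven but all higher, and the log2 change was 2.64 ± 0.35 (SE; edgeR adjusted p = 2.04e-06). DCAF4L1, a member of the DCAF4 family, rose by 2.67 (edgeR adjusted p = 3.84e-08). These directions held with spike-in scaling, at log2 changes of 2.76, 2.80, 1.80, 1.80 and 1.87. TAOK1, a MAPK kinase kinase, rested on 1 library: it had 144, 18.1, 21.8 and 16.7 CPM with KB-0742, against 10.0, 6.71, 12.1 and 8.13 CPM with DMSO. Its log2 change was 2.43 ± 0.52 (SE; edgeR adjusted p = 0.00123), and 1.03 without KB-0742 replicate 1 (adjusted p = 0.0224). With the 8 libraries fitted alone TAOK1 did not pass (2.40, edgeR adjusted p = 0.0979).

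Several of the 10 highest genes overlap another gene in the annotation, and libraries of this kind do not mark the strand. HELLPAR overlaps PMCH and IGF1 among others, and LIFR overlaps LIFR-AS1, so reads from shared stretches cannot be assigned. RPL30-AS1, antisense to RPL30, rose by 2.55, MPRIP-AS1, which overlaps MPRIP, rose by 2.52, and the ribosomal protein pseudogene RPL21P28, within DTL, rose by 2.43 (edgeR adjusted p = 5.26e-09, 1.56e-09 and 5.38e-08; 1.69, 1.73 and 1.59 with spike-in scaling). Their reads cannot be told apart from those of the overlapping genes or, for the pseudogene, of its near-identical copies.

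Among the genes that fell most, RNPC3, a protein of the minor spliceosome at chr1:103525691-103555239, had 0, 5.33, 4.62 and 2.57 CPM with KB-0742, against 20.4, 25.0, 30.6 and 32.8 CPM with DMSO. Each treated library was far below each vehicle library, and the log2 change was -3.10 ± 0.34 (SE; edgeR adjusted p = 8.13e-09). RNPC3 overlaps AMY2B in the annotation. PTCD2, a mitochondrial RNA-binding protein, had 12.9, 10.1, 12.6 and 12.8 CPM with KB-0742, against 59.7, 70.1, 79.7 and 77.9 CPM with DMSO. Both groups were tight, and PTCD2 fell by 2.56 ± 0.235 (SE; edgeR adjusted p = 1.25e-10). The antisense RNA WARS2-AS1 had 2.97, 4.8, 8.40 and 0.428 CPM with KB-0742, against 26.7, 22.3, 31.5 and 28.6 CPM with DMSO. Its log2 change was -2.70 (edgeR adjusted p = 7.09e-07), and -3.365 without KB-0742 replicate 3. WARS2-AS1 lies opposite WARS2, and without strand their reads cannot be told apart. The others were GABRE, a GABA-A receptor subunit (-2.645), CCDC9B (-2.63), the signalling adaptor TRAF4 (-2.45), the ARF GTPase-activating protein GIT2 (-2.45), the cullin adaptor KCTD13 (-2.43), the transcription factor DMTF1 (-2.39) and ZFYVE27 (-2.34). All of these had non-overlapping groups, with edgeR adjusted p at most 4.08e-05. In the annotation PTCD2 overlaps MRPS27, GIT2 overlaps TCHP, KCTD13 overlaps ASPHD1 and DMTF1 overlaps TMEM243. Without strand, reads from the shared stretches cannot be told apart.

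Signalling lists had 9.09 to 33.3% of their tested genes called, against 23.9% of all genes. Of 30 immediate-early genes, 2 were higher and 4 lower, with a median of -0.28. Their lower count was 2 or fewer without KB-0742 replicate 2, 3 or 4 or DMSO replicate 4. Of 21 MAPK feedback genes, 6 were higher and 1 was lower, with a median of 0.12 that was -0.70 with spike-in scaling. The receptor tyrosine kinase EPHA2 averaged 137 ± 27.7 CPM with KB-0742 and 41.1 ± 8.43 CPM with DMSO (SD, n = 4 each), a log2 change of 1.74 ± 0.17 (SE; edgeR adjusted p = 4.23e-10; 0.91 with spike-in scaling). EPHA4 rose by 1.62 (edgeR adjusted p = 0.000398; 0.69 with spike-in scaling). Of 15 YAP and TEAD targets, 2 were higher and 0 lower. Of 11 TGF-beta and BMP targets, 0 were higher and 1 was lower, and of 18 NF-kB genes 2 were higher and 2 lower.

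In the death and stress lists the share of tested genes called was 0 to 38.1%, on both sides of the 23.9% of all genes. None of 3 tested BCL2 family survival genes passed, and of 10 death genes 1 was higher and 1 lower, the lower being BAK1, a pore-forming effector of apoptosis. BAK1 averaged 13.4 ± 2.93 CPM with KB-0742 and 39.0 ± 5.25 CPM with DMSO (SD, n = 4 each), a log2 change of -1.54 ± 0.21 (SE; edgeR adjusted p = 6e-07). Of 16 death receptor, CFLAR and IAP genes, 2 were higher and 3 lower (1 lower without KB-0742 replicate 3). Of 18 p53 targets, 1 was higher and 4 lower (2 lower without KB-0742 replicate 1, 2 or 4). TP53INP1, a p53-induced stress protein, had 0 counts in all 4 KB-0742 libraries and 2.67, 1.83, 2.73 and 2.52 CPM with DMSO, at least 6.99-fold lower when the treated group is given a floor of 3 counts in all. Of 18 integrated stress response genes, 0 were higher and 4 lower (2 without KB-0742 replicate 1 or 2), with CEBPG, a partner of ATF4, at -1.67 (edgeR adjusted p = 5.67e-05). Of 21 heat shock proteins and chaperones, 5 were higher and 3 lower. The higher count there was 3 without KB-0742 replicate 1 or 2 or DMSO replicate 1, and 2 without KB-0742 replicate 3 or DMSO replicate 4. DNAJB1, an HSP40 co-chaperone, fell by 0.70 (edgeR adjusted p = 7.71e-06).

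Homologous recombination and Fanconi genes were lower where they changed. Of 30 tested, 0 were higher and 9 were lower, with a median log2 change of -0.59, against 12.6% lower and a median of -0.08 over all genes. The count was 5 without KB-0742 replicate 3 or DMSO replicate 4 and 4 without DMSO replicate 2. BRCA1, a core recombination protein, had 4.96, 8.00, 7.14 and 2.14 CPM with KB-0742, against 11.7, 13.1, 19.4 and 11.8 CPM with DMSO. The groups did not overlap, and BRCA1 fell by 1.34 ± 0.35 (SE; edgeR adjusted p = 0.00366). FANCL, the ubiquitin ligase of the Fanconi pathway, fell by 1.346 ± 0.30 (SE; edgeR adjusted p = 0.000898). Of 50 replication genes and E2F targets, 4 were higher and 5 lower, and the lower count was 3 or fewer without replicate 1 or 4 of either group or DMSO replicate 2. The clamp loader subunit RFC4 fell by 1.68 ± 0.23 and the origin recognition subunit ORC6 by 1.62 ± 0.21 (SE; edgeR adjusted p = 7.7e-07 and 1.54e-07). Of 15 G1 cyclins, kinases and RB family genes, 0 were higher and 3 lower (1 without KB-0742 replicate 2). CDKN2D, an inhibitor of CDK4 and CDK6, had 1.49, 4.8, 1.26 and 0 CPM with KB-0742, against 17.7, 9.45, 13.3 and 12.05 CPM with DMSO (log2 change -2.845; edgeR adjusted p = 0.000104; -3.80 without KB-0742 replicate 2). Of 40 G2/M and mitosis genes, 8 were higher and 3 lower (1 lower without DMSO replicate 1), with the mitotic kinesin KIF11 at 1.21 and the proliferation marker MKI67 at 1.199 (edgeR adjusted p = 0.00302 and 5.21e-05; 0.34 and 0.33 with spike-in scaling). Of 60 listed replication-dependent histone genes, 30 were tested and 0 were called, with a median of 0.26. Their log2 changes spread from -2.61 to 9.57. The 9.57 was the highest estimate of all genes tested and did not pass, so this spread is not a measure of effect.

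Genes of translation and energy metabolism formed the broadest block of higher calls, and the block was not higher with spike-in scaling. All 79 tested cytosolic ribosomal protein genes were higher, with log2 changes of 0.39 to 0.76 and a median of 0.53, which was -0.30 with spike-in scaling, where 0 were called. RPS9, a small-subunit protein, averaged 1214 ± 111 CPM with KB-0742 and 715 ± 68.5 CPM with DMSO (SD, n = 4 each), a log2 change of 0.76 (edgeR adjusted p = 1.57e-05; -0.06 with spike-in scaling). All 13 mitochondrially encoded mRNAs were higher, with a median of 0.69 (-0.17 with spike-in scaling). MT-CO1, a cytochrome c oxidase subunit, averaged 13950 ± 653 CPM with KB-0742 and 7948 ± 1646 CPM with DMSO (SD, n = 4 each), a log2 change of 0.81 (edgeR adjusted p = 1.24e-05; -0.08 with spike-in scaling). Of 49 nuclear respiratory chain subunits, 35 were higher and 0 lower, with a median of 0.42 (-0.42 with spike-in scaling), and 18 were higher without KB-0742 replicate 3. The ATP synthase subunit ATP5F1B rose by 0.54 (edgeR adjusted p = 2.94e-05; -0.31 with spike-in scaling). Of 23 cytochrome c oxidase assembly genes, 4 were higher and 1 lower (2 higher and 3 lower without KB-0742 replicate 4, and 2 higher without DMSO replicate 1 or 2). In the highest bin of genes by level 36% were called higher, and the mitochondrial share and the share of the 100 highest genes moved with treatment as given above. The part of these shares in the result was not tested.

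Of 31 proteasome subunits, 15 were higher (48.4%) and 0 lower, with a median of 0.27 (-0.57 with spike-in scaling). Without KB-0742 replicate 3 or DMSO replicate 4, 9 were higher. PSMC1, an ATPase of the regulatory particle, had 168, 146, 173 and 175 CPM with KB-0742, against 72.4, 76.2, 60.6 and 78.2 CPM with DMSO. The groups were well apart, and the log2 change was 1.204 ± 0.12 (SE; edgeR adjusted p = 1.24e-09; 0.35 with spike-in scaling). Of 22 genes of glucose transport and glycolysis, 10 were higher (45.5%) and 1 lower (4.55%), with a median of 0.38 (-0.48 with spike-in scaling). The lower gene was PFKFB4, which sets the level of fructose 2,6-bisphosphate, at -1.84 ± 0.29 (SE; edgeR adjusted p = 9.25e-06). Of 18 commonly used reference genes, 9 were higher (50%) and 2 lower (11.1%), with a median of 0.41 (-0.44 with spike-in scaling). Over all genes tested 11.3% were higher and 12.6% lower, and in the highest bin by level 36% were higher. The part of level in these counts was not tested.

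**Figure D4:**
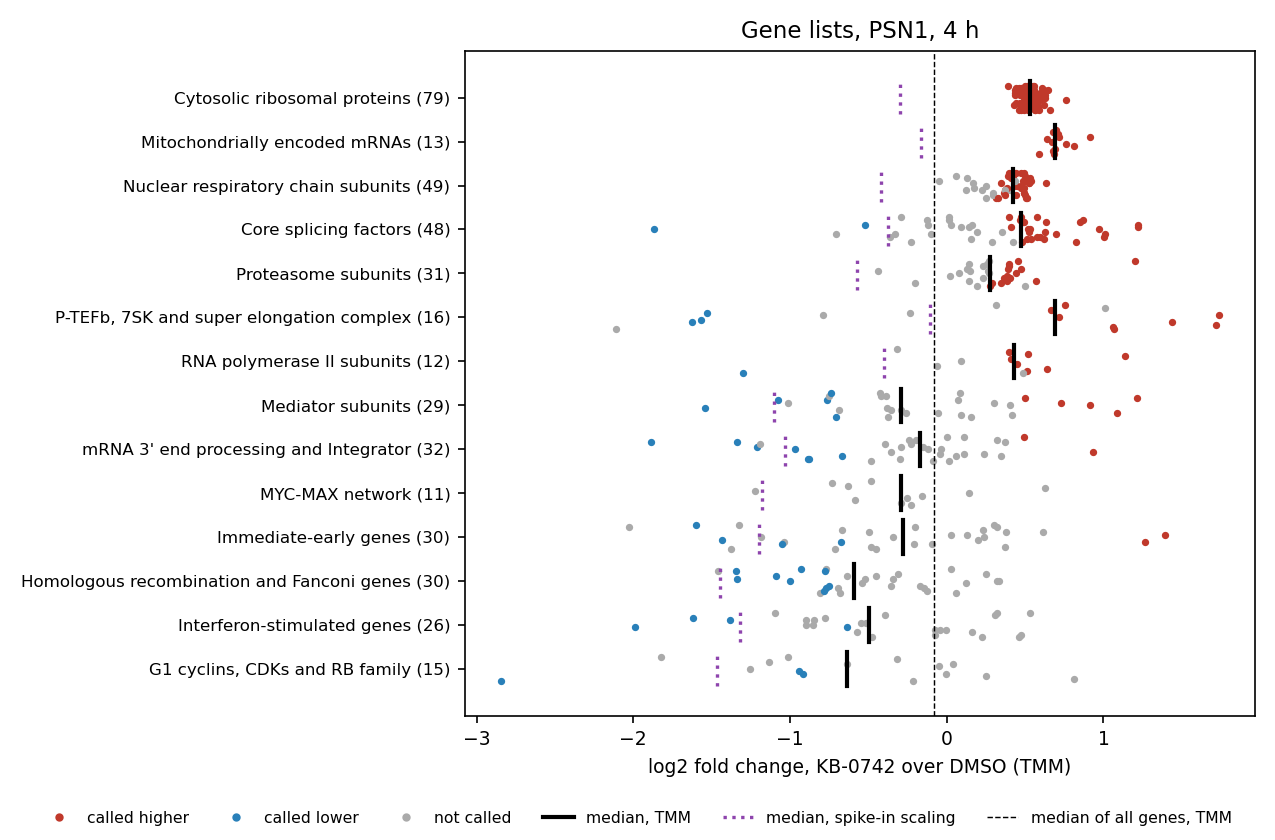
Log2 change, KB-0742 over DMSO, of each tested member of selected gene lists (points, with called genes coloured), the median of each list (solid bar), its median with spike-in scaling (dotted bar) and the median of all genes (dashed line). Ribosomal protein genes and mitochondrially encoded mRNAs lie in a narrow band above 0 with spike-in medians below 0, and homologous recombination genes lie mainly below 0.

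The share called was 54.5% of snoRNA-host RNAs, 38.5% of nuclear long noncoding RNAs and 29.3% of mRNA decay genes, against 23.9% of all genes. For interferon-stimulated genes it was 15.4% and for ZNF genes 17.7%, both below it. Of 22 snoRNA-host RNAs, 7 were higher and 5 lower (4 higher without DMSO replicate 1). SNHG4, SNHG20 and SNHG19 fell by 1.69, 1.15 and 0.92 (edgeR adjusted p = 1.35e-07, 0.00269 and 0.000169). Of 13 nuclear long noncoding RNAs, 2 were higher, including HELLPAR, and 3 were lower. KCNQ1OT1, the imprinted antisense RNA of KCNQ1, had 8.92, 14.4, 12.2 and 10.3 CPM with KB-0742, against 33.0, 35.7, 38.8 and 42.0 CPM with DMSO. It was lower in every treated library, with a log2 change of -1.71 ± 0.21 (SE; edgeR adjusted p = 4.32e-08). FTX fell by 1.22 (edgeR adjusted p = 0.000109). Of 41 mRNA decay genes, 6 were higher and 6 lower. CNOT6, a deadenylase, and UPF1, the helicase of nonsense-mediated decay, rose by 1.48 and 1.27 (edgeR adjusted p = 0.00011 and 5.43e-05; 0.69 and 0.33 with spike-in scaling), while TOB1, an adaptor of the deadenylase complex, fell by 1.66 (edgeR adjusted p = 6.54e-06). Of 26 interferon-stimulated genes, 0 were higher and 4 lower (15.4%, near the 12.6% of all genes; 2 without KB-0742 replicate 4 or DMSO replicate 3), with IRF9, a subunit of the interferon-activated factor ISGF3, at -1.99 (edgeR adjusted p = 0.000619; -2.76 without KB-0742 replicate 4). Of 311 tested ZNF genes, 20 were higher and 35 lower, with a median of -0.20, and ZNF341 had 2.48, 0.533, 0.420 and 0.855 CPM with KB-0742, against 12.01, 10.98, 15.8 and 18.8 CPM with DMSO. Its log2 change was -3.72 (edgeR adjusted p = 6.07e-08; -4.47 without KB-0742 replicate 1).

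Of 26 tested epithelial markers, 3 were higher (11.5%) and 1 was lower (3.85%), with a median of 0.26 (-0.62 with spike-in scaling). Of 13 mesenchymal markers, 2 were higher (15.4%) and 0 lower, with a median of 0.34 (-0.47 with spike-in scaling). Over all genes tested 11.3% were higher and 12.6% lower. The 1 epithelial marker called lower was CLDN4, a tight junction protein. It had 23.8, 24, 16.4 and 24.4 CPM with KB-0742, against 122, 93.3, 72.8 and 56.0 CPM with DMSO. The groups did not overlap, and CLDN4 fell by 1.96 ± 0.30 (SE; edgeR adjusted p = 2.22e-05).

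The same 4 h DMSO libraries also serve as vehicle for KI-CDK9d-32, so the compounds were set against each other directly, as 1 pair at the matched time with doses not given. Between KB-0742 and KI-CDK9d-32 libraries (n = 4 each), 2175 of 12471 genes differed, which is 17.4%, with 932 higher (7.47%) and 1243 lower (9.97%) under KB-0742. CCNT1 had 47.1, 48.5, 52.9 and 49.6 CPM with KB-0742, against 15.9, 25.2, 22.4 and 16.9 CPM with KI-CDK9d-32. The groups were separate, with a difference of 1.30 ± 0.24 on the log2 scale (SE; edgeR adjusted p = 9.8e-05). MYC had 244, 254, 236 and 222 CPM with KB-0742, against 153, 132, 143 and 116 CPM with KI-CDK9d-32. All KB-0742 libraries were higher, by 0.82 ± 0.14 (SE; edgeR adjusted p = 2.24e-05), though with spike-in scaling neither this difference (0.58, adjusted p = 0.276) nor that of CCNT1 (1.04, adjusted p = 0.0509) passed. CDK9 and HEXIM1 differed by 1.07 ± 0.39 and -1.03 ± 0.38 (SE), and neither passed (edgeR adjusted p = 0.052 and 0.0571). For MCL1 the difference was -0.05 with a 95% interval of -0.447 to 0.344, and for POLR2A it was -0.23 with an interval of -0.637 to 0.177 (edgeR adjusted p = 0.904 and 0.499).

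The genes named for their difference between the compounds include some that KI-CDK9d-32 left near their vehicle level and some whose estimate lay on the other side of it. CCDC9 had 14.9, 26.7, 22.3 and 28.7 CPM with KB-0742, 1.09, 1.61, 1.44 and 1.13 CPM with KI-CDK9d-32, and 4.00, 3.05, 3.34 and 12.05 CPM with DMSO. Its difference between compounds was 4.08 ± 0.50 (SE; edgeR adjusted p = 7.02e-08). The change of CCDC9 with KI-CDK9d-32 over DMSO was -2.06 (edgeR adjusted p = 0.0101), with 15 counts in the smallest group. ZNF792 was higher with KB-0742 by 2.84 ± 0.39 (SE; edgeR adjusted p = 6e-07). PNISR, a splicing-linked SR-rich protein, had 4.96, 7.47, 8.82 and 1.28 CPM with KB-0742, 35.8, 41.3, 36.1 and 50.4 CPM with KI-CDK9d-32, and 17.7, 27.8, 31.5 and 29.7 CPM with DMSO. It was lower with KB-0742 by a log2 difference of -2.86 ± 0.27 (SE; edgeR adjusted p = 1.41e-10). The change of PNISR with KI-CDK9d-32 over DMSO, 0.61, did not pass (edgeR adjusted p = 0.0783). RNPC3 had 23.5, 30.6, 29.6 and 34.6 CPM with KI-CDK9d-32, near its DMSO level, and differed by -3.22 ± 0.34 (SE; edgeR adjusted p = 2.66e-09). WARS2-AS1 differed by -2.86 ± 0.36 (SE; edgeR adjusted p = 1.92e-07). WARS2-AS1 reads again cannot be told apart from those of WARS2. By list, 5 of 16 P-TEFb, 7SK and super elongation genes were higher with KB-0742 and 0 lower, as were 11 and 0 of 53 nucleolar genes and 5 and 0 of 15 YAP and TEAD targets. Core splicing factors had 15 higher and 3 lower of 48, and 3′ end processing and Integrator 1 higher and 6 lower of 32. Over all genes 7.47% were higher and 9.97% lower in this comparison. Ribosomal protein genes differed in 4 of 79 and mitochondrially encoded mRNAs in 0 of 13.

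**Figure D5:**
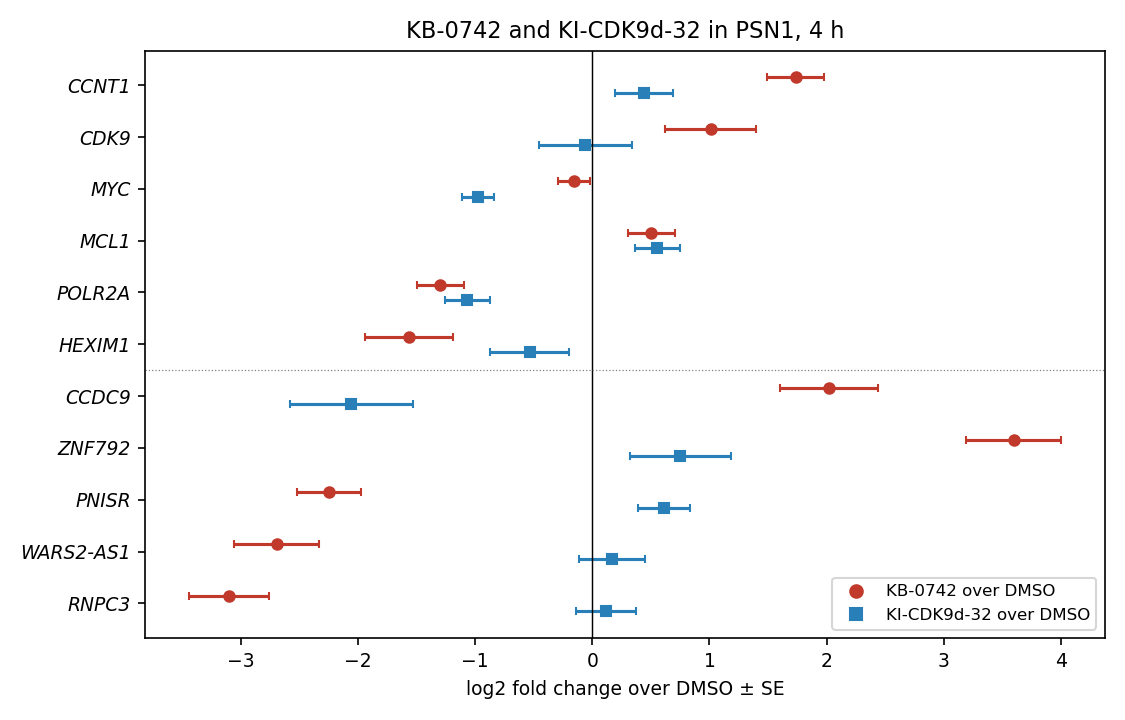
Log2 change over DMSO ± SE for KB-0742 (circles) and KI-CDK9d-32 (squares), n = 4 libraries each, for the pathway genes (above the dotted line) and the genes named for their difference between compounds (below it). Both compounds are set against the same 4 DMSO libraries. The pairs lie close for MCL1 and POLR2A, and for CCDC9 and PNISR they lie on opposite sides of 0. The PNISR change with KI-CDK9d-32 did not pass the threshold.

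The effect of KB-0742 at 4 h differed from its effect at 8 h for 235 of 12471 genes, which is 1.88%, with 72 more positive and 163 more negative at 4 h. None of CCNT1, CDK9, MYC, MCL1, POLR2A and HEXIM1 was among them. CCNT1 changed by 1.74 at 4 h and 1.76 at 8 h, a difference of -0.03 (edgeR adjusted p = 0.988), POLR2A by -1.30 at 4 h and -1.72 at 8 h, and HEXIM1 by -1.57 at 4 h and -1.76 at 8 h. Only 2 genes differed between the times after scaling to the spike-ins. Between lines, the 4 h effect in PSN1 differed from that in MOLT4, a T-cell leukemia line, for 864 of 15881 genes (5.44%). It differed from that in RH4, a rhabdomyosarcoma line, for 219 (1.38%). MYC changed by -0.16 in PSN1 and 0.95 in MOLT4, a difference of -1.11 ± 0.24 (SE; edgeR adjusted p = 0.000967) that did not pass with spike-in scaling (-0.72, adjusted p = 0.733). POLR2A changed by -1.30 in PSN1 and -0.49 in MOLT4, a difference of -0.81 ± 0.26 (SE; edgeR adjusted p = 0.045) that was lost whenever a replicate number was left out. CCNT1, CDK9, MCL1 and HEXIM1 did not differ past the threshold from MOLT4 (0.36, 0.70, 0.89 and 1.30). None of the 6 genes differed past it from RH4, where the differences were 0.30 for CCNT1, 0.58 for CDK9, -0.34 for MYC, -0.71 for MCL1, -0.74 for POLR2A and 0.49 for HEXIM1. MYCN, also chosen for description, had too few counts in PSN1 to be tested.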

How the data were processed

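The 8 PSN1 libraries were made with SMART-seq2 and Nextera XT, per the labels' protocols, which does not mark strand. Salmon and the genome hg38 are named in the submitters' processing notes, and their versions and the annotation are not given in the sources used here. The authors deposited expected counts per gene, as whole numbers that were read here without further rounding, and log2(TPM + 1) values. From the counts, 92 ERCC, 7 SIRV and 47 PAR_Y entries were set aside. The remaining genes were filtered with filterByExpr (minimum count 10), scaled by TMM and fitted over all 32 PSN1 libraries (8 groups) with edgeR 4.0.16 (R 4.3.3) robust quasi-likelihood tests. Benjamini-Hochberg adjustment ran over all genes tested, at 0.05. Genes not tested held 0.527% of gene counts. Lines were compared in 1 fit of 91 libraries. CPM values use TMM library sizes, and SE is the log2 change over the square root of F. Replicate pairs differed beyond counting noise (lowest chi-square per degree of freedom 3.965), the biological coefficient of variation was 0.252, and the fit was checked on simulated counts. That simulation changed few genes, equally in both directions, so it does not bear on the choice of scaling. A symbol was found for 11527 tested genes. Positions are from the GENCODE annotation on GRCh38.

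The comparison, its members, gene lists and tests were chosen with earlier results of these data known. Named genes were 7 chosen for the pathway, up to 10 with the highest and 10 with the lowest change (called, mean log2 CPM of at least 3, groups without overlap), up to 3 called members per list with the largest change, any member of the P-TEFb and MYC-MAX lists, and up to 3 in each direction per difference. Members whose call was lost on leaving out 1 library were left unnamed, except where stated, which was decided with the values in view. Alternatives used limma 3.58.1 and DESeq2 1.42.0, other scalings, no filter, a replicate block and fewer libraries. Exact permutation tests were two-sided. A few genes that this rule picks are not reported here.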

Additional observations from a re-analysis of the deposited data

Results flagged for a closer look

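In 12 of the 170 groups of 4 libraries examined for the genes named above, 1 library stood apart by Dixon's test (critical value 0.829), and chance flags about 1 in 20. In the KB-0742 libraries, these were LARP7 in replicate 1 (4.46 CPM, others 7.7 to 8), TAOK1 in replicate 1 (144 CPM, others 16.7 to 21.8), PTCD2 in replicate 2 (10.1 CPM, others 12.6 to 12.9) and CCNL1 in replicate 2 (82.1 CPM, others 59.5 to 62). RPS9 in replicate 3 (1380 CPM, others 1150 to 1170), UPF1 in replicate 2 (41.6 CPM, others 53.3 to 55.2) and CLDN4 in replicate 3 (16.4 CPM, others 23.8 to 24.4) also stood apart. In the DMSO libraries they were KCTD13 in replicate 4 (38.1 CPM, others 14.6 to 17.1), ZFYVE27 in replicate 3 (40.3 CPM, others 49.7 to 51.6) and CSTF3 in replicate 4 (15.1 CPM, others 21.3 to 22.1). EPHA4 in replicate 1 (19 CPM, others 5.89 to 7.88) and BAK1 in replicate 4 (46.8 CPM, others 35.7 to 37.6) completed them.

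The KB-0742 effect differed between times for UNC50, a Golgi membrane protein, by 2.31 on the log2 scale (-0.779 at 4 h and -3.09 at 8 h; edgeR adjusted p = 1.13e-05). It differed for SYNJ2, a phosphoinositide phosphatase, by -2.47 (-1.09 at 4 h and 1.39 at 8 h; edgeR adjusted p = 0.00313), and for CLCF1, a cytokine, by -2.46 (-1.19 at 4 h and 1.27 at 8 h; edgeR adjusted p = 9.34e-05). None of the 3 passed with spike-in scaling (adjusted p = 0.0527, 0.103 and 0.103). Between lines, the effect in PSN1 minus that in MOLT4 was -1.11 for MYC (-0.16 in PSN1 and 0.95 in MOLT4; edgeR adjusted p = 0.000967) and -0.812 for POLR2A (-1.3 in PSN1 and -0.489 in MOLT4; edgeR adjusted p = 0.045). It was 3.5 for the nucleotide transporter SLC17A9 (-0.405 in PSN1 and -3.91 in MOLT4; edgeR adjusted p = 0.00057) and 3.6 for the NKG2D ligand ULBP2 (0.0277 in PSN1 and -3.58 in MOLT4; edgeR adjusted p = 0.000677). It was 3.8 for MRNIP, a repair factor (-0.748 in PSN1 and -4.55 in MOLT4; edgeR adjusted p = 1.05e-06), and -2.72 for DNHD1 (-0.251 in PSN1 and 2.47 in MOLT4; edgeR adjusted p = 4.21e-06). SLC17A9, ULBP2 and MRNIP had 5, 7 and 6 counts in the smallest of the 4 groups. The effect in PSN1 minus that in RH4 was -3.1 for the noncoding RNA APCDD1L-DT (-0.422 in PSN1 and 2.68 in RH4; edgeR adjusted p = 3.36e-07).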

How the results depend on the processing

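Spike-in scaling called 5343 genes in place of 2983, and 7163 with the replicate block added, while limma on log2(TPM + 1) called 4346. The replicate block alone gave 3446, and other settings gave 2353 to 3135 except leaving out replicate numbers (1997 to 2371). Same-numbered libraries correlated by 0.0542 to 0.15, and KB-0742 replicate 2 did not correlate best with its own number (0.0562 against 0.0579), so the numbers were not taken as pairs. Replicates 3 and 4 correlated by 0.102 and 0.15 with their own number, against at most 0.0117 and 0.00248 with another. With the block, CDK9 (1.03, adjusted p = 0.0402) and MCL1 (0.51, 0.0407) passed, as did CDK9 (1.08, 0.0429) and HEXIM1 (-1.04, 0.0435) between compounds. The spike-in share was higher with KB-0742 than in the same-numbered DMSO library in 4 of 4, by 6.3, 2.67, 1.65 and 2.06 points. For the difference between compounds, spike-in scaling gave 1318 genes. For 4 h against 8 h, it gave 2, the block 426, and leaving out a replicate number 94 to 141. For PSN1 against MOLT4, it gave 146 and leaving out a number 443 to 605. For PSN1 against RH4, it gave 2, the block 451 and leaving out a number 67 to 111.

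Of 85 named genes, 56 kept direction and call with spike-in scaling, 23 lost the call (4 of them with a change of sign), 4 gained one and 6 changed sign in all, and the causes were not tested. Signs changed, with spike-in scaling and with the block added to it, for MCL1 (-0.31 and -0.33), MLLT1 (-0.51 and -0.50), SRSF3 (-0.16 and -0.14), RPS9 (-0.057 and -0.079), MT-CO1 (-0.076 and -0.017) and ATP5F1B (-0.31 and -0.30). They changed with limma for MCL1 (-0.036), MLLT1 (-0.13), SRSF3 (-0.0090) and ATP5F1B (-0.0040), and the 4 h minus 8 h difference of CCNT1 was 0.022 with spike-in scaling. Leaving out a replicate number turned signs of uncalled values: LARP7 (-0.40 to 0.029), MCL1 between compounds (-0.19 to 0.12), CCNT1 (-0.47 to 0.17) and HEXIM1 (-0.16 to 0.69) between times, and HEXIM1 against RH4 (-0.18 to 0.96). Depth limits genes with few counts in treated libraries.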
